A study of Mus musculus with 6 samples.

Results

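The genes described here encode the machinery that brings new proteins into the endoplasmic reticulum (ER) and attaches their sugar chains. They were 43 genes chosen by name for these functions, 1 row of the count table each, out of 55487 genes in the table and 15787 with enough reads to be tested; all 43 passed that filter on low counts. The list was drawn up with earlier results of the same knockout and control libraries known, so the knockout against control values below describe these genes and are no independent test of their direction.

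The libraries came from microglia, the resident macrophages of the brain, of 6 female mice aged 20 months, 1 library per mouse. The 3 controls were Atg7-fl/fl mice and the 3 knockouts were Atg7-fl/fl;Cx3cr1-CreERT2 mice, so all 6 carried floxed alleles of Atg7, an enzyme needed to form autophagosomes, and only the knockouts carried Cre. CreERT2 is a recombinase that acts after binding a tamoxifen-type ligand; the labels do not say whether or when the mice received one. It is driven here from the Cx3cr1 locus, which is also active in other macrophages and in monocytes, and effects of the Cre allele and of Atg7 loss cannot be told apart. Cells were taken from the cortex by flow cytometry as live cells with CD11b and intermediate CD45 staining.

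As background, a ribosome making a secreted or membrane protein is recognised by the signal recognition particle (SRP) through the first hydrophobic stretch of the chain and is docked on the SRP receptor. The chain then threads through the SEC61 channel, helped by the TRAP complex, while signal peptidase cuts off the signal peptide and oligosaccharyltransferase (OST) moves a preassembled sugar tree from the lipid dolichol to asparagine residues. Glucosidases trim this tree so that the lectin chaperones calnexin and calreticulin can hold the folding protein. Microglia use this route for their surface receptors, lysosomal enzymes and secreted complement proteins, and in many cells the unfolded protein response raises genes of this machinery.

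The label of the sort was checked first. The summed CPM (read counts per 1000000 reads of the library total, scaled by TMM) of 12 microglia markers was 63237 to 74715 in the controls and 59178 to 64354 in the knockouts, with all 12 detected in each library. Atg7 reads came to 65.7, 66.4 and 56.6 CPM per control and 25, 26.5 and 23.7 CPM per knockout, which edgeR put at a log2 fold change of -1.33 ± 0.19 (SE) and an adjusted p of 0.0147. Cx3cr1, whose locus carries the Cre allele in the knockouts, averaged 10620 CPM ± 907 (SD, n = 3) without and 4710 CPM ± 791 with the Cre allele, which edgeR put at -1.17 ± 0.13 (SE) on the log2 scale with an adjusted p of 0.00126. Depth was very uneven, with 1254380 reads in control 3, 3789208 in knockout 2 and 21282335 to 39389527 in the other 4 libraries. The lowest of the 43 genes had 7 reads in control 3 and the median gene 124, against medians of 2340 to 5040 reads in the 4 deep libraries. Marker reads of other myeloid cells differed in amount between libraries. The sums of 10 border macrophage, 8 monocyte and 8 neutrophil markers were 17.1, 18.4 and 44.5 CPM in control 1 and 41.8, 55.1 and 363 CPM in control 2. They were 94.3, 55.8 and 482 CPM in control 3 and 284, 156 and 1998 CPM in knockout 1. Knockout 2 had 171, 85.2 and 654 CPM, and knockout 3 had 72.6, 35.4 and 142 CPM. A few genes carried the monocyte and neutrophil sums. In knockout 1 the monocyte marker Chil3 gave 107 CPM and Ly6c2 10.8 CPM, and the neutrophil marker Ngp 831 CPM and Ly6g 1.6 CPM. The part of other myeloid cells in the values below was not tested. Defining T cell genes (Cd3e, Cd3d, Cd3g, Trac) were at 0.52 CPM or less in each library, while 8 B and plasma cell markers summed to 579 to 776 CPM, of which Ighm gave 516 to 709 CPM and Cd79b 51.3 to 77.8 CPM. In that list Ms4a1 and Mzb1 had 0 reads in each library, which allows up to 0.0789 CPM in control 1 and 2.36 CPM in control 3 (3 reads).

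Most of the 43 genes lay lower in the knockouts, by small amounts. Of them 34 had a log2 fold change (knockout over control) below 0 and 9 above, the range was -2.0 to 0.17 and the median was -0.21, where the median of all genes tested was 0.02 and 47.5% of them were below 0. The share of all reads that fell on the 43 genes was 0.795%, 0.791% and 0.723% (controls 1 to 3) against 0.707%, 0.635% and 0.660% (knockouts 1 to 3), so the 3 knockouts lay below the 3 controls. None of the 43 passed the adjusted threshold of 0.05 in edgeR, which called 0, against 0.0443% of all genes tested in either direction (0.0127% lower and 0.0317% higher), and the smallest adjusted p was 0.54. DESeq2 called 1 gene, Rpn1, against 0.526% of all genes, and limma voom 0, against 0.095%. At an unadjusted p under 0.05, edgeR had 6 genes lower (Rpn1, Sec61a1, Spcs3, Magt1, Krtcap2 and Ddost), against 1.98% of all genes tested, and 0 higher, against 2.34%. The 3 knockouts lay below the 3 controls without overlap in 8 genes, against 4.47% of all genes tested, and above them in 0, against 6.59%. Counts under other settings differed: at an unadjusted p under 0.05 the lower genes numbered 13 in DESeq2 and 15 in voom, against 2.64% and 5.05% of all genes, 11 with a stricter filter on low counts, against 2.9%, and 6 with a replicate block, against 1.84%. They numbered 4 with library totals in place of TMM, against 1.52%, 2 without control 1, against 1.27%, 3 without control 2, against 1.26%, and 2 without knockout 2, against 1.97%. With the block 0 genes were called, against 0.158% of all genes, and with no filter on low counts 2, Ncln and Serp1, against 0.127%. Since these are bulk measurements, fewer cells that express a gene and less of its RNA per cell cannot be told apart.

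In the median, control 3 lay below controls 1 and 2 over these genes, over related genes and, by less, over all genes tested. It lay below both other controls in 30 of 43 genes, between them in 7 and above both in 6. Over all genes tested it lay below both in 52.6%, and over the genes of like level in 54.9%. The median difference of control 3 from the mean of controls 1 and 2 was -0.25 on the log2 scale, that of the knockouts from the same mean was -0.26, and that of the knockouts from control 3 was 0.02; over all genes tested the same 3 medians were -0.19, -0.01 and 0.15. In the 119 other pathway genes described below, the same 3 medians were -0.28, -0.18 and 0.11. The differences that involve control 3 are values of 1 shallow library, and none of these differences has a test. Controls 1 and 2 both lay above all 3 knockouts in 21 of the 43 genes, against 12.5% of all genes tested and 16.3% of the genes of like level. Without control 3 the median log2 fold change of the 43 genes was -0.27 with 35 below 0, against 48.8% of all genes in that fit, and 15 genes were lower at an unadjusted p under 0.05, against 3.79% of those. In that fit edgeR called 3 of the 43 genes lower, against 0.201% of all genes: Ddost, Serp1 and Ncln, which are described below. Control 3 lay among or below the knockouts in these 3 genes, so calls made after leaving it out are no independent test. Without both shallow libraries, control 3 and knockout 2, the 15 lower at an unadjusted p under 0.05 compared with 4.08% of all genes, and the 3 called lower, the same ones, with 0.178%.

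**Figure D1:**
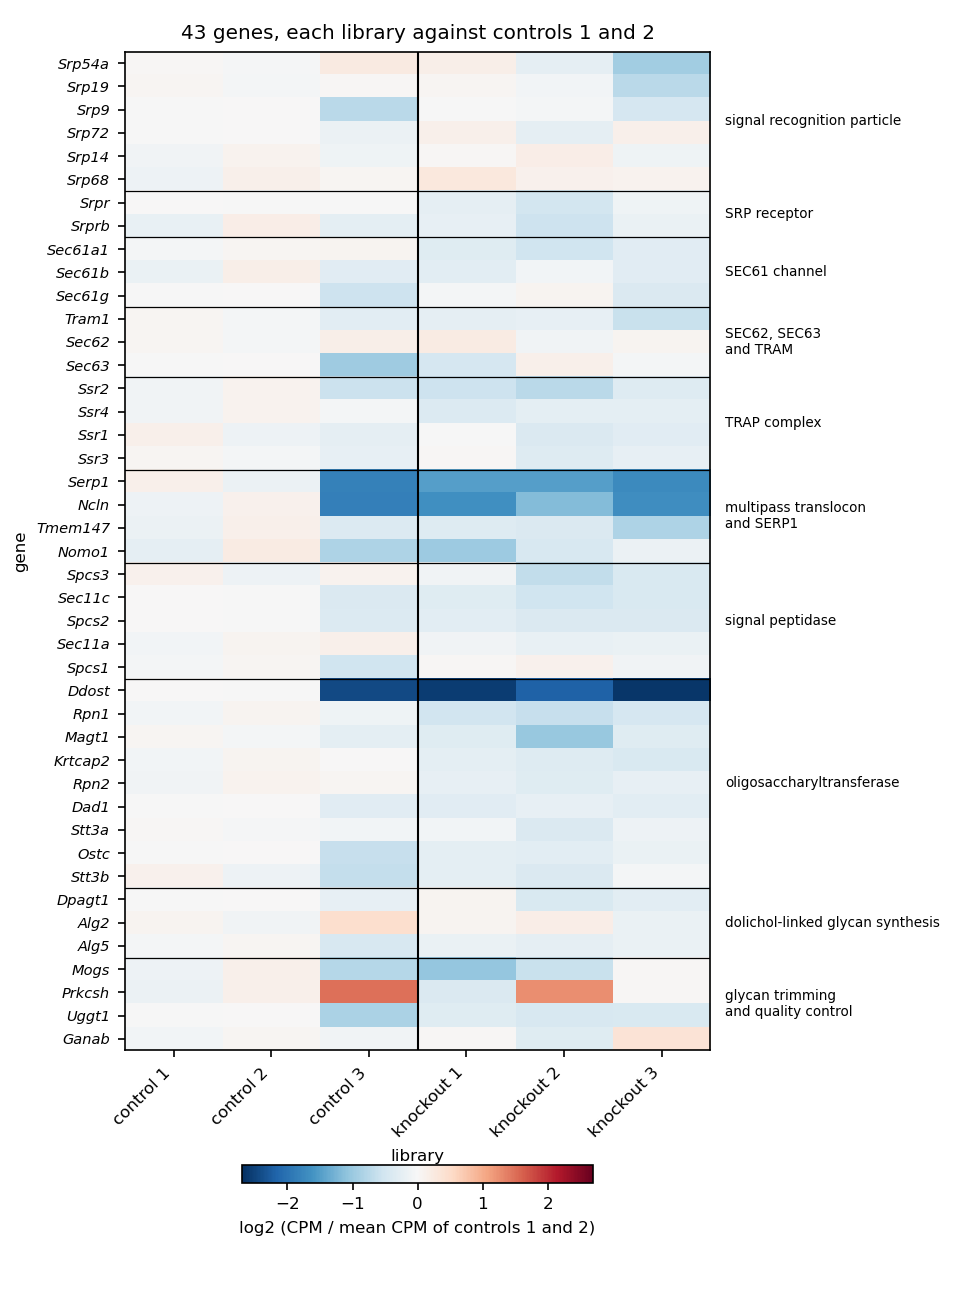
Each row is 1 of the 43 genes, grouped by role, and each column 1 library; the colour is the log2 of the CPM over the mean CPM of controls 1 and 2. Ddost, Serp1 and Ncln were as low in control 3 as in the knockouts, and Prkcsh was high in control 3 and knockout 2, the 2 shallow libraries.

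Upstream sequences are shown for 4 genes on which the results turn, so that they can be set beside the values: Rpn1, whose knockout and control values did not overlap, and Ddost, Serp1 and Ncln, which shared a pattern across the libraries. Sequences come from RefSeq promoter windows on the build GRCm38.p6, in which 33 of the 43 genes had an entry, with 35 windows; Alg2, Dpagt1, Ostc, Sec11c, Sec61a1, Spcs3, Srp19, Srp68, Ssr2 and Tram1 had none. They are the 250 bases before the annotated start, 5′ to 3′ on the strand of the gene; capitals mark CCACG and CCAAT on either strand, the outer parts of the element bound during the unfolded protein response.
Rpn1 (chr6:88084223-88084472, plus strand): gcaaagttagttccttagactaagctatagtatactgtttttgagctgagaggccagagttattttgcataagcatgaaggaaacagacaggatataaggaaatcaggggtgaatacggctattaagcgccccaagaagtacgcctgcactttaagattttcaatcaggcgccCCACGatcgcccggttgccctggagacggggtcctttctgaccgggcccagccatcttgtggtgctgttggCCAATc
Ddost (chr4:138304488-138304737, plus strand): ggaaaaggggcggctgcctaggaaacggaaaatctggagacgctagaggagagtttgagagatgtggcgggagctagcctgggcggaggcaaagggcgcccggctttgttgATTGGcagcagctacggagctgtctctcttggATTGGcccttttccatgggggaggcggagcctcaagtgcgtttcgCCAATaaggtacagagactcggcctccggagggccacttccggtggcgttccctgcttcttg
Serp1 (chr3:58525885-58526134, minus strand): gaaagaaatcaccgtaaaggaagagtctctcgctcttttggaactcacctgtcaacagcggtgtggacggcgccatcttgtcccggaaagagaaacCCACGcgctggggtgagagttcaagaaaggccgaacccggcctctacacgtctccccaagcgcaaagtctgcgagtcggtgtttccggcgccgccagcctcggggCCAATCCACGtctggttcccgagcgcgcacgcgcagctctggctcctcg
Ncln (chr10:81496364-81496613, minus strand): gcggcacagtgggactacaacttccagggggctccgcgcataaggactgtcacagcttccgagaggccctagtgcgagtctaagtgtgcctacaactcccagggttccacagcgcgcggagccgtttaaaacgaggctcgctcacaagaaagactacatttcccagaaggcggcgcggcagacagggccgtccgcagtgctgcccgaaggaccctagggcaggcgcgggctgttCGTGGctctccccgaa
The full element, CCAAT and CCACG with 9 bases of any kind between them, on either strand, was in 0 of the 35 windows of 300 bases (250 before and 50 from the start on) and in 0.119% of all 32851 windows. TGACGTGG was likewise in 0, against 0.676% of all windows. The second form of the element, ATTGG and CCACG with 1 base of any kind between them, was in 1 window, that of Krtcap2, against 0.0365% of all windows. The match there lies 17 to 27 bases past the start base and is shown in capitals with its surroundings, because it was the only match to a full element among these genes:
Krtcap2 (chr3:89246481-89246509, plus strand): gggacacggATTGGACCACGgacggggcg
CCACG alone, which the 3 longer motifs also contain, was in 22 of the 35 windows (62.9%) and in 32.8% of all windows. The other pathway lists described below had 122 windows, of which 57.4% held CCACG. Of those, 2.46% held the full element, 1.64% TGACGTGG and 0 the second form. Within the 250 upstream bases, CCACG was in 48.6% of the 35 windows and 28.3% of all, and CCAAT in 40.0% and 33.8%. In the sequences above, Rpn1 holds 1 CCACG and 1 CCAAT, Ddost 0 and 3, Serp1 2 and 1, and Ncln 1 and 0; in Serp1 a CCAAT is followed directly by a CCACG. These matches describe letters and not binding.

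The 6 genes of the signal recognition particle showed little difference between the groups. In the values by library that follow, the order is controls 1, 2 and 3 and then knockouts 1, 2 and 3, and the error after a log2 fold change is its SE. Together they reached 345, 375 and 325 CPM in controls against 392, 358 and 342 CPM in knockouts, so the groups overlapped. The median log2 fold change was 0.05, with 2 of 6 genes below 0, and no member differed from 0 by more than its SE. The direction turned with the libraries used: 3 of 6 were below 0 without control 3 (median -0.08) and in voom (-0.07), and 4 of 6 without knockout 1 (-0.05), without knockout 2 (-0.03) or without both shallow libraries (-0.13). Srp68, which with SRP72 forms the protein core of the particle, had 79.9, 97.0 and 91.9 CPM in controls against 107, 95.3 and 94.8 CPM in knockouts. Its values were high in knockout 1 and low in control 1 and overlapped between the groups, with a log2 fold change of 0.15 ± 0.16. Srp19, whose product helps to assemble the particle, had 27.3, 25 and 26.7 CPM in controls against 27.0, 24.7 and 15.7 CPM in knockouts, a log2 fold change of -0.23 ± 0.25. Srp9, of the domain that slows translation, had 54.5, 55.0 and 33.0 CPM in controls against 54.6, 53.0 and 39.8 CPM in knockouts, and control 3 was its lowest library. The log2 fold change of Srp9 was 0.02 ± 0.22. Srp14, the partner of Srp9, and Srp72 lay at 0.08 ± 0.16 and 0.07 ± 0.17 on the same scale. Srp54a, a copy of the gene for the GTPase that binds the signal sequence, lay at only 2.42 to 5.50 CPM, with 7 reads in control 3, and had a log2 fold change of -0.34 ± 0.52. The near-identical genes Srp54b (0.28 to 1.07 CPM) and Srp54c (5.11 to 21.2 CPM) can share its reads, so the split between these 3 genes is uncertain.

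The 2 genes of the SRP receptor were both below 0. Srpr, for the subunit that meets the particle, had 177, 172 and 174 CPM in controls against 148, 123 and 160.3 CPM in knockouts. All 3 knockouts lay below the controls, which were close to each other, and the log2 fold change was -0.27 ± 0.16. Srprb, for the membrane anchor of the receptor, had 124, 162 and 119 CPM in controls against 124, 96.6 and 127 CPM in knockouts, with overlap, and a log2 fold change of -0.23 ± 0.18. In GENCODE M21, an annotation of the build before the one named by the submitters, 20.7% of the exonic bases of Srprb are shared with another gene on the same strand, so its count is uncertain. Genes on the opposite strand share 14.1% of those of Srp9, 16.3% of those of Spcs1 and 11.7% of those of Sec62.

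Of the 3 subunits of the SEC61 channel, the pore gene had knockouts and controls apart and the small subunits did not. Sec61a1, the pore, had 334, 359 and 362 CPM in controls against 276, 237 and 282 CPM in knockouts. The 3 controls were close together, control 3 included, and lay above the 3 knockouts. Its level was 352 CPM ± 15.6 (SD, n = 3) among controls and 265 CPM ± 24.0 among knockouts, a log2 fold change of -0.41 ± 0.14 with an unadjusted p of 0.0122 and an edgeR adjusted p of 0.94. Sec61b, the small beta subunit, had 39.6, 49.9 and 36.1 CPM in controls against 36.6, 42.6 and 36 CPM in knockouts, a log2 fold change of -0.14 ± 0.20. Sec61g, the gamma subunit that clamps the pore, had 50.3, 51.5 and 34.6 CPM in controls against 49.0, 53.2 and 38.8 CPM in knockouts, a log2 fold change of 0.03 ± 0.21. Control 2 was the highest library for Sec61b and knockout 2 for Sec61g, and the groups overlapped in both. Leaving out control 3 moved Sec61g to -0.13. Whether the pore and the small subunits differ in their response was not tested.

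The accessory genes Sec62, Sec63 and Tram1 did not separate the groups. Tram1, for a membrane protein beside the channel, had 308, 287 and 244 CPM in controls against 249.99, 255 and 196 CPM in knockouts. Controls 1 and 2 were its highest libraries and knockout 3 its lowest, with a log2 fold change of -0.26 ± 0.16. Sec63, which recruits the chaperone BiP to the channel, had 21.3, 21.7 and 11.0 CPM in controls against 15.6, 23.6 and 20.6 CPM in knockouts, a log2 fold change of 0.08 ± 0.29. Sec62, its partner in translocation after translation, had 97.2, 89.7 and 105 CPM in controls against 109.7, 87.3 and 98.1 CPM in knockouts, a log2 fold change of 0.02 ± 0.16. The log2 ratio of Sec62 to Sec63 reads within a library, which does not depend on scaling, was 2.5 ± 0.66 (SD, n = 3) in the controls and 2.32 ± 0.47 in the knockouts.

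All 4 TRAP genes, which encode the complex that assists the channel, were below 0, with a median of -0.21. Ssr2, the beta subunit, had 152, 173 and 109 CPM in controls against 109.7, 97.4 and 128 CPM in knockouts. Control 3 lay level with knockout 1 for this gene, and the log2 fold change was -0.38 ± 0.19 over all libraries and -0.55 without control 3. Ssr4, the delta subunit, had 177, 199.8 and 182 CPM in controls against 146, 157 and 157 CPM in knockouts, with the 3 knockouts below the 3 controls and a log2 fold change of -0.28 ± 0.15. Ssr3, the gamma subunit, had 213, 200.3 and 177 CPM in controls against 209.8, 162 and 178 CPM in knockouts, with overlap and a log2 fold change of -0.10 ± 0.16. Ssr1, the alpha subunit, lay at 835 to 1084 CPM in controls and at 759 to 990.4 CPM in knockouts, with a log2 fold change of -0.14 ± 0.15. Of the exonic bases of Ssr2, 12.8% are shared with another gene, on the opposite strand, in GENCODE M21.

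The clearest pattern by library was in 3 genes that were high in controls 1 and 2 and low in the other 4 libraries; the choice of these genes followed from seeing their values. Ddost, the OST48 subunit of oligosaccharyltransferase, had 333, 326 and 60.5 CPM in controls against 55.6, 72.7 and 53.4 CPM in knockouts. Control 3 lay among the knockouts, and controls 1 and 2 were over 4 times higher. The counts behind the low values were 77 reads in control 3 and 280 to 1878 in the knockouts, and the 95% exact Poisson interval of control 3, which covers counting error only, was 47.75 to 75.6 CPM. Over all libraries the log2 fold change was -2.0 ± 0.72 with an edgeR adjusted p of 0.999. Without control 3 it was -2.46 with an edgeR adjusted p of 8.7e-06, and control 3 itself differed from the mean of controls 1 and 2 by -2.44 on the log2 scale.

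Serp1, also called RAMP4, a small protein bound to the channel and the ribosome, had 135, 111 and 34.6 CPM in controls against 44.1, 44.2 and 37.6 CPM in knockouts. Again control 3, with 44 reads and a 95% interval of 25.1 to 46.4 CPM, lay below the 3 knockouts, and controls 1 and 2 lay well above. The log2 fold change was -1.18 ± 0.48 over all libraries (unadjusted p = 0.0508, edgeR adjusted p = 0.999) and -1.57 without control 3 (edgeR adjusted p = 0.0013). Ncln, for nicalin, a subunit of the complex that binds SEC61 when proteins with several membrane spans are made, had 128, 153 and 39.3 CPM in controls against 44.8, 62.3 and 44.1 CPM in knockouts. Its control 3 value rests on 50 reads, with a 95% interval of 29.2 to 51.8 CPM, and the log2 fold change was -1.11 ± 0.51 (unadjusted p = 0.082, edgeR adjusted p = 0.999), or -1.50 without control 3 (edgeR adjusted p = 0.0029). Of the 43 genes, 3 (6.98%) had controls 1 and 2 at least 2-fold above each of the other 4 libraries, against 45 of all 15787 genes tested (0.285%). The pattern itself was taken from the values of these 3 genes, so this share describes them and is no test. Leaving out control 3 removes the control that lay with the knockouts, so the adjusted p without it are no independent test either. In these 3 genes control 3 lay with the knockouts, so their difference between knockout and control rests on controls 1 and 2. In GENCODE M21, Ddost and Ncln share 0% of their exonic bases with other genes and Serp1 1.56%. What else differed between controls 1 and 2 and control 3, apart from depth and the marker sums given above, is not in the labels.

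The other 2 genes of the multipass complex were also lower in control 3 than in controls 1 and 2. Tmem147 had 57.4, 70.0 and 49.5 CPM in controls against 49.8, 48.8 and 35.7 CPM in knockouts, a log2 fold change of -0.41 ± 0.21. Nomo1, the third subunit, had 20.2, 27.7 and 13.4 CPM in controls against 12.2, 17.7 and 21.4 CPM in knockouts, a log2 fold change of -0.31 ± 0.30. Both overlapped between the groups.

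**Figure D2:**
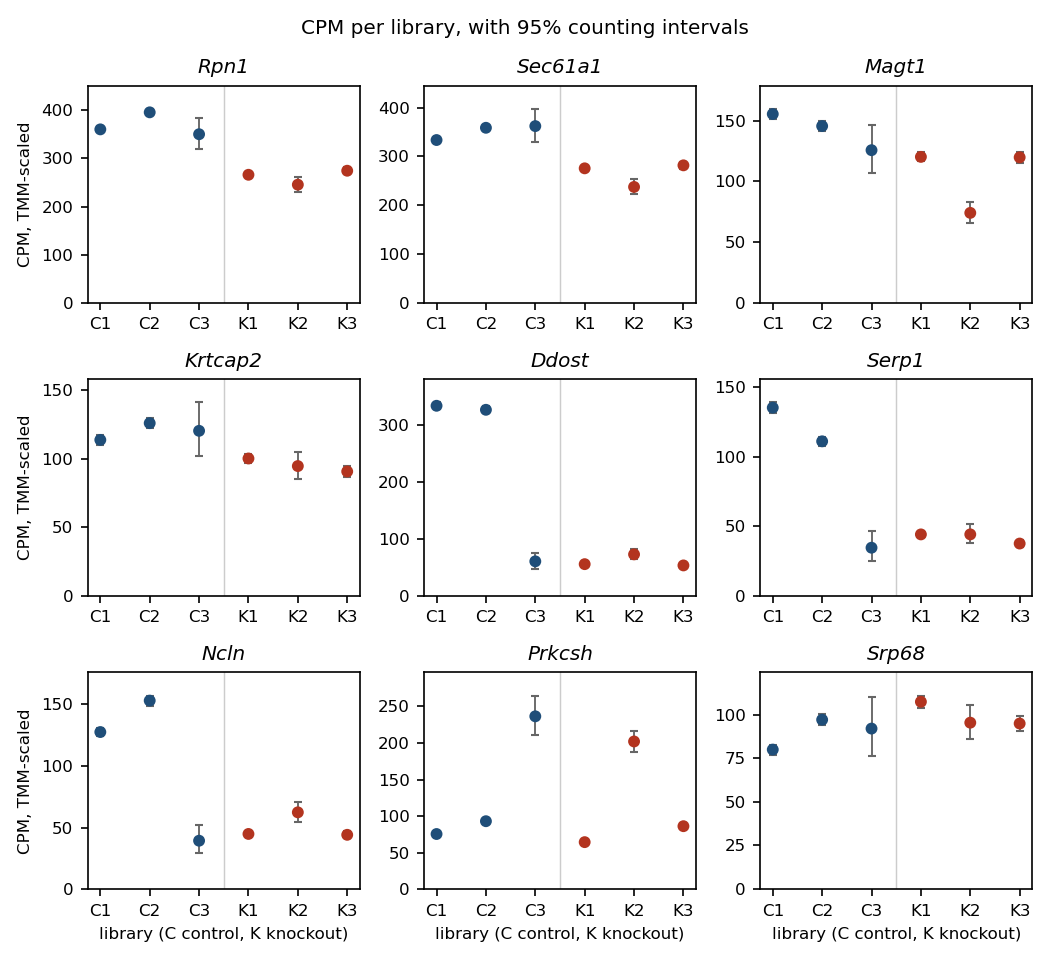
CPM in each library for 9 genes, with controls in blue and knockouts in red and bars for the 95% exact Poisson interval of the count. The top row and Krtcap2 have all 3 controls above all 3 knockouts, while Ddost, Serp1 and Ncln have control 3 among or below the knockouts.

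Of the 5 signal peptidase genes, 4 were below 0 and the median was -0.24. Spcs3, an accessory subunit, had 391, 327 and 385 CPM in controls against 335, 226 and 270.3 CPM in knockouts. The groups overlapped by 1 library, knockout 1, which lay above control 2, and the log2 fold change was -0.41 ± 0.17 with an unadjusted p of 0.0272. Sec11c, 1 of 2 alternative catalytic subunits, had 175, 170.2 and 132 CPM in controls against 137, 118 and 129.8 CPM in knockouts, with control 3 inside the knockout range and a log2 fold change of -0.31 ± 0.16. Sec11a, the other catalytic subunit, lay at 164 to 191 CPM in controls and, without overlap, at 149.9 to 161 CPM in knockouts, a log2 fold change of -0.21 ± 0.15. The log2 ratio of Sec11a to Sec11c reads was 0.18 ± 0.32 (SD, n = 3) in the controls and 0.27 ± 0.06 in the knockouts, a difference smaller than the spread of the controls. Spcs1, a small membrane subunit, went the other way with 139.7, 151 and 101 CPM in controls against 149, 156 and 136 CPM in knockouts. Its highest library was knockout 2 and its lowest control 3, and the log2 fold change was 0.17 ± 0.17, or 0.01 without control 3. Spcs2 lay at -0.24 ± 0.15, and its control 3 value of 476 CPM was inside the knockout range of 469 to 507 CPM.

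Oligosaccharyltransferase was the role with the most genes. All 9 subunits among the 43 genes were below 0, with a median of -0.28, but 7 without control 1, 8 without control 2 and 8 after thinning the reads to the shallowest total. Of the further subunits described below, Ost4 and Tmem258 lay at 0.11 and 0.05 and Tusc3 at -1.16. The 3 knockouts lay below the 3 controls in 4 subunits, Rpn1, Rpn2, Magt1 and Krtcap2, against 4.47% of all genes tested. Rpn1, ribophorin I, which presents substrates to the enzyme, had 361, 396 and 350.5 CPM in controls against 266, 245 and 274 CPM in knockouts. Each control, control 3 included, lay above each knockout. Its level was 369 CPM ± 23.9 (SD, n = 3) among controls and 262 CPM ± 14.9 among knockouts, a log2 fold change of -0.49 ± 0.14, with an unadjusted p of 0.0032 and an adjusted p of 0.54 in edgeR and an adjusted p of 0.0293 in DESeq2. Across all alternatives tried, its log2 fold change stayed between -0.55 and -0.43.

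Rpn2, ribophorin II, had 736, 832 and 814 CPM in controls against 672, 622 and 674 CPM in knockouts, a log2 fold change of -0.28 ± 0.13. Krtcap2, a subunit found in the form of the enzyme built around STT3A, had 114, 126 and 120.2 CPM in controls against 100.1, 94.5 and 90.6 CPM in knockouts, a log2 fold change of -0.33 ± 0.15 with an unadjusted p of 0.0464. In both genes control 3 lay between controls 1 and 2 and above the knockouts. Magt1, the oxidoreductase subunit of the form built around STT3B, had 156, 146 and 126 CPM in controls against 120.2, 74 and 119.8 CPM in knockouts. Knockout 2 was well below the rest, while knockouts 1 and 3 lay just under control 3. The log2 fold change of Magt1 was -0.44 ± 0.19, and -0.26 without knockout 2. GENCODE M21 assigns 15.7% of the exonic bases of Krtcap2 also to another gene, on the opposite strand.

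Both catalytic subunits overlapped between the groups. Stt3b, which modifies sites that were skipped during translation, had 40.2, 33.6 and 23.6 CPM in controls against 30.9, 28.1 and 35.6 CPM in knockouts, a log2 fold change of -0.07 ± 0.23. Stt3a, which works at the channel, lay at 596 to 649 CPM in controls and at 479 to 603 CPM in knockouts, with a log2 fold change of -0.16 ± 0.14. The log2 ratio of Stt3a to Stt3b reads was 4.29 ± 0.33 (SD, n = 3) in the controls and 4.13 ± 0.14 in the knockouts. Dad1 and Ostc, small subunits, lay at -0.18 ± 0.15 and -0.07 ± 0.18 on the log2 scale, and control 3 lay below the knockouts in Ostc (87.2 CPM against 109.9 to 118.7 CPM).

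Levels of different subunits were compared per length of exon. The length counts all annotated exons of a gene together, so the order of genes depends on which transcripts are annotated. In the controls the highest of the 43 genes was Rpn2 with 179 CPM per kb ± 11.5 (SD, n = 3), and among OST subunits Rpn1 had 81.8 ± 5.3, Krtcap2 78.8 ± 4.01, Stt3a 69.2 ± 3.01 and Stt3b 7.68 ± 1.98 CPM per kb. Rpn1 and Krtcap2 did not differ beyond their spread, and Stt3b was the lowest of the OST subunits among the 43 genes in both groups. The further OST subunits Tusc3, Ost4 and Tmem258 were not put on this scale. Ddost had 157 and 154 CPM per kb in controls 1 and 2, near Rpn2, and 25.2 to 34.3 CPM per kb in the other 4 libraries, and its knockout mean lay between those of Magt1 and Ostc.

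**Figure D3:**
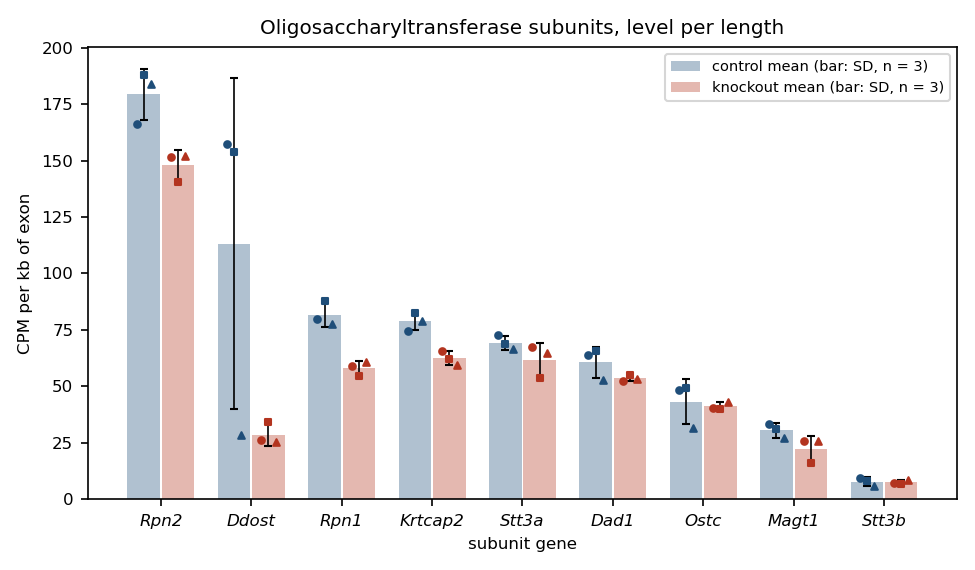
Level per length (CPM per kb of exon) of the 9 oligosaccharyltransferase subunits among the 43 genes. Bars are means of 3 libraries with the SD, and circles, squares and triangles are libraries 1, 2 and 3 of each group. Rpn2 is the highest in both groups, and the control bar of Ddost spans 2 high libraries and control 3 at the knockout level.

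The 3 genes that build the dolichol-linked sugar all overlapped between the groups. Dpagt1, which starts the sugar tree and is the target of tunicamycin, had 81.6, 81.9 and 69.9 CPM in controls against 85.7, 61.6 and 67.0 CPM in knockouts, a log2 fold change of -0.13 ± 0.18. Alg2, a mannosyltransferase, had 42.5, 37.7 and 55.0 CPM in controls against 42.0, 45.7 and 35.7 CPM in knockouts, with its highest value in control 3. Alg5, which makes the glucose donor, had 128, 136 and 97.4 CPM in controls against 116, 112 and 117 CPM in knockouts, with its lowest value in control 3. The log2 fold changes of Alg2 and Alg5 were -0.12 ± 0.21 and -0.07 ± 0.17.

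The 4 genes of glycan trimming and quality control had 3 of 4 below 0, a median of -0.18 and a wide spread. Mogs, glucosidase I, had 17.1, 20.6 and 11.0 CPM in controls against 9.18, 12.5 and 19.3 CPM in knockouts, a log2 fold change of -0.29 ± 0.34. Uggt1, which puts a glucose back on misfolded glycoproteins, had 68.9, 70.5 and 38.5 CPM in controls against 55.6, 51.4 and 52.5 CPM in knockouts. Control 3 was its lowest library, controls 1 and 2 were above the knockouts, and the log2 fold change was -0.18 ± 0.22, or -0.40 without control 3. Ganab, the catalytic subunit of glucosidase II, lay at 82.3 to 132 CPM among knockouts, a range that enclosed the 95.9 to 107 CPM of the controls, with a log2 fold change of 0.08 ± 0.18.

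Prkcsh, the other subunit of glucosidase II, had 75.4, 92.9 and 237 CPM in controls against 64.3, 202 and 86.1 CPM in knockouts. It was high in control 3 and knockout 2, 1 library of each group and the 2 with the fewest reads, and 64.3 to 92.9 CPM elsewhere. These counts, 301 reads in control 3 and 778 in knockout 2, have 95% Poisson intervals of 210.6 to 264.8 and 188 to 217 CPM, which cover counting error only. Of all genes tested, 2.54% had both shallow libraries at least 2-fold above each of the others, and of the 43 genes 1 (2.33%). The log2 fold change of Prkcsh was -0.19 ± 0.71 and turned to 0.45 without control 3 and 0.09 without knockout 1.

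**Figure D4:**
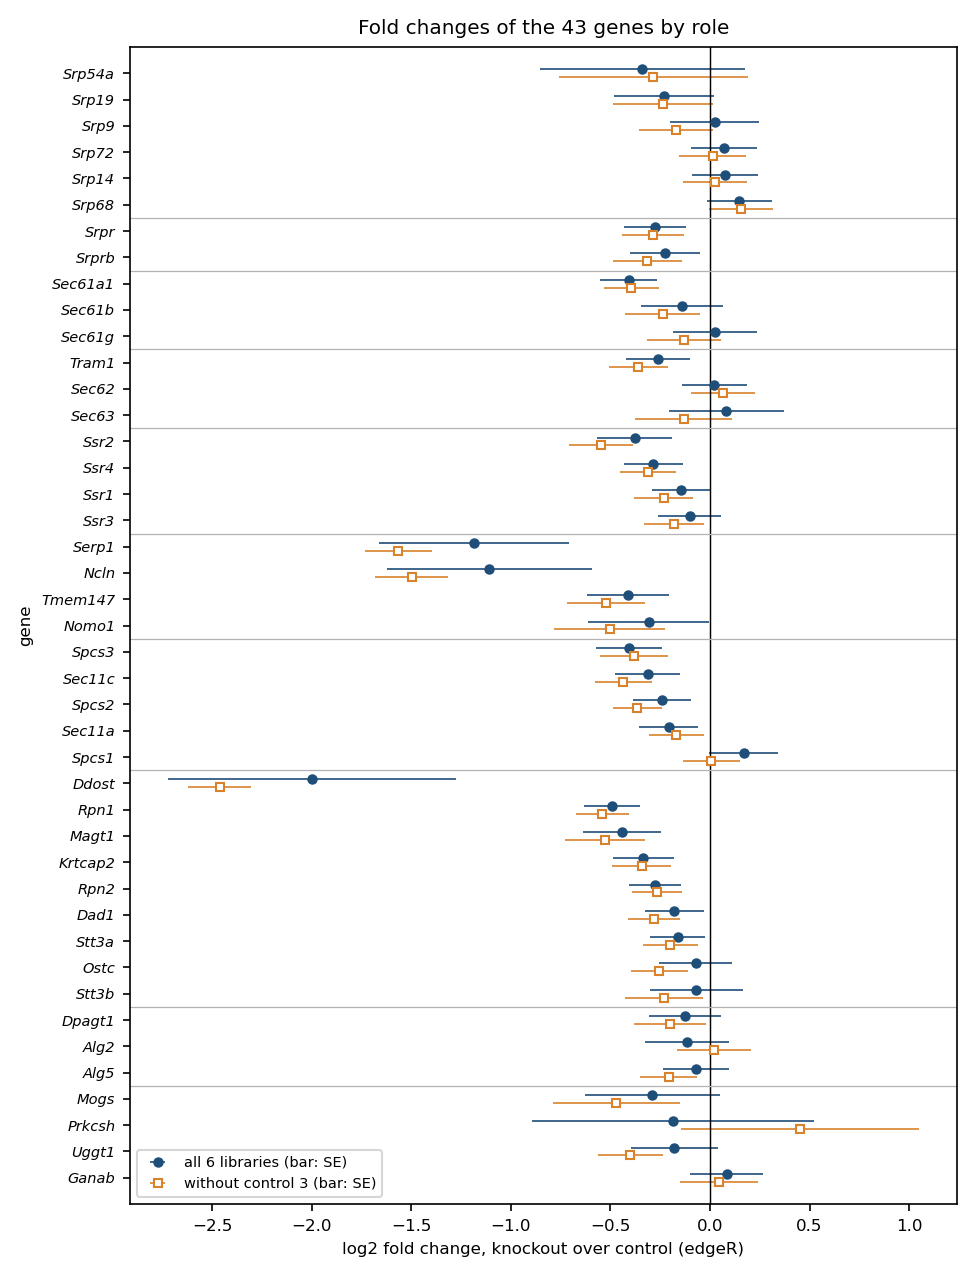
Log2 fold change of knockout over control for each gene, by role, over all 6 libraries (filled) and without control 3 (open), with the SE. Most points lie left of 0 with bars near it. Ddost, Serp1 and Ncln lie far left, with wide bars when control 3 is included. Prkcsh changes side, as do Alg2, Sec61g, Sec63 and Srp9, which lie near 0.

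Levels were also summed by role, where the genes with the most reads weigh most. OST subunits summed to 2771, 2864 and 2384 CPM against 2165, 1942 and 2152 CPM in knockouts. The SEC61 channel summed to 424, 460.2 and 433 CPM for controls against 361, 333 and 357 CPM for knockouts. In both, and in the sums of the SRP receptor and all 43 genes together (8234, 8255 and 7125 CPM; 6937, 6255 and 6527 CPM), the knockouts lay below the controls. The sum of the multipass group was 340.3, 362 and 137 CPM against 151, 173 and 139 CPM in knockouts, with control 3 at the bottom. Most of the SEC61 sum came from Sec61a1, with 334, 359 and 362 CPM in controls against 276, 237 and 282 CPM in knockouts. Sec61b and Sec61g overlapped between the groups, as did Srprb of the SRP receptor. The summed levels carry no test.

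**Figure D5:**
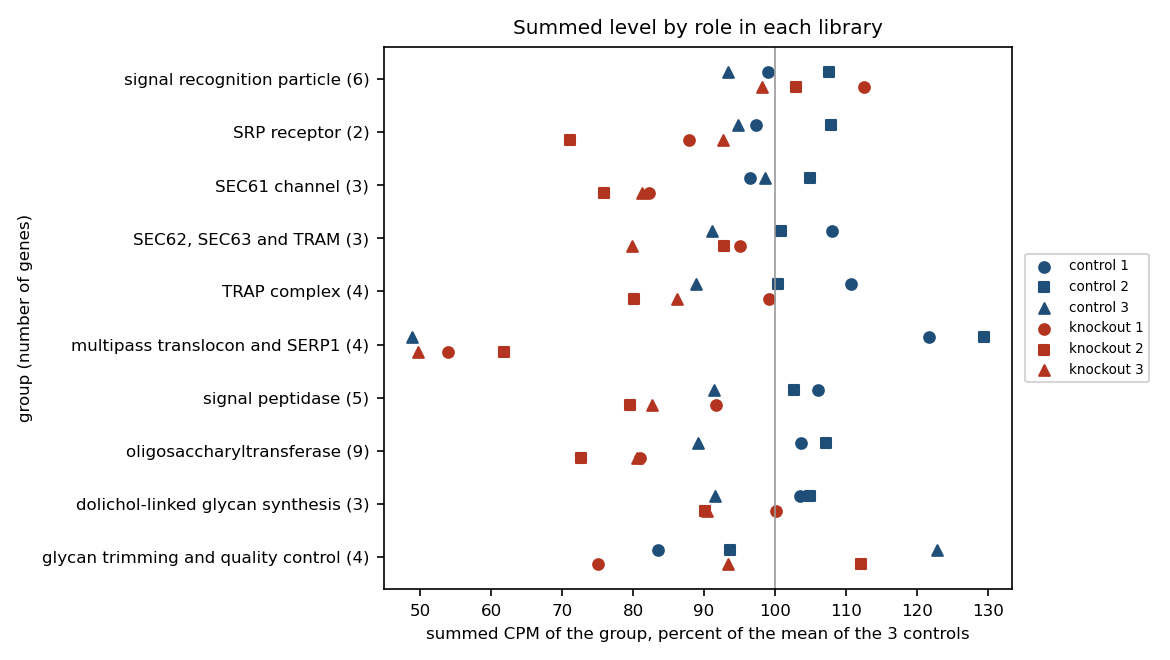
Summed CPM of each role in each library as a percentage of the mean of the 3 controls; the number of genes is in brackets. The knockouts lie left of all controls for the SEC61 channel, a sum that is mostly Sec61a1, and for oligosaccharyltransferase. Control 3 lies with the knockouts in the multipass group and on the far right in glycan trimming.

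Other genes of the same pathway were taken from 9 lists of 122 genes that share no member with the 43; 119 were found in the table under these symbols and tested. EdgeR called 0 of the 119, against 0.0443% of all genes tested; at an unadjusted p under 0.05, 10 were lower and 1 higher, against 1.98% and 2.34%, while DESeq2 called 2 (Calr and Pdia3), against 0.526% of all genes, and limma voom 1 (Calr), against 0.095%. Of the 119 genes 78 were below 0, with a median of -0.10. These lists too were written with earlier results of these data known.

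Among lectin chaperones and ER sorting genes, which act right after glucose trimming, 11 of 14 were below 0, with a median of -0.23. At an unadjusted p under 0.05, 4 were lower and 0 higher, against 1.98% and 2.34% of all genes tested. Calr, calreticulin, had 579, 651 and 525 CPM in controls against 359.9, 283 and 319 CPM in knockouts, a log2 fold change of -0.87 ± 0.15 with an edgeR adjusted p of 0.0623. Canx, calnexin, had 1837, 1451 and 1501 CPM in controls against 1248, 1099.8 and 1144 CPM in knockouts, a log2 fold change of -0.46 ± 0.13 with an edgeR adjusted p of 0.587. Pdia3, the disulfide isomerase that works with both lectins, had 1839, 1591 and 1025 CPM in controls against 733, 658 and 363 CPM in knockouts, a log2 fold change of -1.35 ± 0.34 with an edgeR adjusted p of 0.764. In 5 of the 14 genes, these 3 included, the 3 knockouts lay below the 3 controls, against 4.47% of all genes tested. Calr, Canx and Pdia3 are named because they had the smallest p of the list, so their separation is no further support. The COPII coat, which carries cargo out of the ER, had 12 of 16 genes below 0 (median -0.22). Of these 3 were lower and 0 higher with an unadjusted p under 0.05, against 1.98% and 2.34% of all genes tested. The smallest p belonged to Tmed9 at -0.42 ± 0.17 and Sec24c at -0.51 ± 0.21.

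The further genes of sugar donor synthesis had 18 of 27 below 0 (median -0.16). Of these 1 was lower and 0 higher with an unadjusted p under 0.05, against 1.98% and 2.34% of all genes tested. The smallest p belonged to Mpi, which makes mannose 6-phosphate, at -0.36 ± 0.16 and Dolk, the dolichol kinase, at -0.38 ± 0.19. Of the 3 further OST subunits 1 was below 0 (median 0.05). That 1 was lower and 0 higher at the same level of p, against the same shares of all genes. Tusc3, the alternative to Magt1, had 18.9, 17.8 and 3.14 CPM in controls against 7.22, 7.27 and 4.60 CPM in knockouts, again with controls 1 and 2 above the other 4 libraries, and its control 3 value rests on 4 reads. Ost4 had a log2 fold change of 0.11 ± 0.23 and Tmem258 of 0.05 ± 0.20. Golgi enzymes that remodel the sugar had 11 of 20 below 0 (median -0.04). At the same level of p 1 was lower and 1 higher, against the same shares of all genes. These were Mgat5 at -0.39 ± 0.18 and the sialyltransferase gene St6gal1 at 0.38 ± 0.18.

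The ER membrane protein complex (8 of 10 below 0, median -0.03), the GET pathway (4 of 5, median -0.10), GPI anchor attachment (6 of 10, median -0.02) and the other targeting and translocon partners (7 of 14, median -0.01) had 0 genes with an unadjusted p under 0.05 in either direction in edgeR. The genes of smallest p, with their log2 fold changes, were Emc6 (-0.54 ± 0.31) and Emc2 (0.31 ± 0.20), Get1 (-0.15 ± 0.15) and Sgta (-0.10 ± 0.18), Gpaa1 (-0.31 ± 0.17) and Pigv (-0.26 ± 0.19), and Naca (0.27 ± 0.15) and Btf3 (0.36 ± 0.20). Naca and Btf3 encode the complex that shields new chains from wrong targeting. A difference between these lists and the 43 genes was not tested.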

How the data were processed

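Bulk RNA-seq libraries of sorted cortical microglia from 3 control and 3 knockout mice were compared. The authors deposited whole-number read counts per gene, per the file headers; the submitters' processing notes name STAR, Subread featureCounts and Salmon and the build GRCm39. No source used here says whether reads were counted by strand. The labels' protocols describe amplified cDNA and name no molecular identifiers. Of 55774 rows, 287 repeated an identifier with identical counts and were left out; 0 rows named no gene and 0 columns belonged to other samples.

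Knockouts were compared with controls by edgeR 4.0.16 (R 4.3.3), with its count filter, TMM scaling and robust quasi-likelihood F-test on 15787 genes, and p-values were adjusted by Benjamini-Hochberg over all of them (threshold 0.05). The SE is the log2 fold change divided by the square root of F. The script was tested on simulated data. DESeq2 1.42.0 and limma voom 3.58.1, other scalings and filters, a replicate block, reads thinned to the shallowest total and fits without libraries were alternatives. CPM are counts per 1000000 reads of the TMM-scaled total. Totals ran from 1254380 to 39389527 reads, so 3 reads were worth 2.36 CPM in control 3 and 0.0789 CPM in control 1. Poisson intervals are exact, at the 95% level, and cover counting error only.

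Exon lengths and overlaps came from GENCODE M21 (build GRCm38), matched by identifier (99.5% of genes, 43 of the 43), and promoter windows from RefSeq. The members and lists were chosen with earlier results of these data known. Values by library are given for the 3 SEC61 subunits and, in each role, for the 2 genes with the smallest and the 1 with the largest unadjusted p; in the other pathway lists the 2 genes with the smallest p are named, with log2 fold changes. Rpn2, Krtcap2, Ncln, Sec11a, Pdia3, Tmem258 and other genes named beyond this rule were chosen after their values were seen.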

Additional observations from a re-analysis of the deposited data

How the results depend on the processing

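The 43 genes kept a median log2 fold change below 0 under each of the 16 alternatives, from -0.27 to -0.16, with 32 to 39 genes below 0; with library totals in place of TMM it was -0.16. The number of these genes lower at an unadjusted p under 0.05 was 6 in edgeR, against 1.98% of all genes tested. It was 4 with library totals (1.52% of all genes), 11 with a stricter filter (2.9%) and 13 with DESeq2 (2.64%). With voom it was 15 (5.05%), and without both shallow libraries 15 (4.08%). When each library was left out in turn it was 2 to 15, against 1.26% to 3.79% of all genes. The number called was 0 in edgeR, against 0.0443% of all genes in either direction. It was 2 with no filter (Ncln and Serp1), against 0.127% lower, and 1 with DESeq2 (Rpn1), against 0.526% in either direction. Without both shallow libraries it was 3 (Ddost, Ncln and Serp1), against 0.178% lower. With 1 library left out it was 0 to 3, against 0.00572% to 0.201% lower, and the 3 come without control 3. Without control 3 the control arm holds 2 libraries. In Ddost, Ncln and Serp1 the library left out is the control that lay with the knockouts. Over all genes, 5 called higher and 2 lower became 60 and 42 with no filter, 49 and 34 with DESeq2, 9 and 6 with voom, 1 and 1 without the robust option, 16 and 9 with a replicate block, and 9 and 30 without both shallow libraries; with 1 library left out they ran from 1 to 15 and from 1 to 35. Of the other pathway genes, 0 called became 1 with DESeq2 size factors, 1 with library totals, 2 with no filter, 1 with a stricter filter, 2 with DESeq2, 1 with voom, 2 with the replicate block and 1 after thinning, and 0 to 2 with 1 library left out. The cause of these shifts was not tested. The labels number the replicates and do not say whether mice were paired. Deviations of same-numbered libraries correlated at 0.30, -0.22 and -0.06 across genes, and those of other pairs at -0.29 to 0.29. With 3 libraries per group these values cannot decide on pairing. With the replicate block the 43 genes had a median of -0.21. In that fit 6 were lower at an unadjusted p under 0.05, against 1.84% of all genes, and 0 were called, against 0.158%. After thinning, 42 of the 43 genes passed the filter. Depth limits the genes with few reads in control 3, where the lowest of the 43 had 7.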
